A study of Saccharomyces cerevisiae with 28 samples.

Results

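Dominance and transgression were examined in diploid hybrids of 2 strains of budding yeast, Saccharomyces cerevisiae, by placing transcript levels of the hybrids relative to diploids of each parent strain. The 12 arrays used were 6 of hybrid diploids from a cross of BY with RM, 3 of RM diploids and 3 of BY diploids, out of 28 in the series. BY carries the genome of the reference laboratory strain S288C, and RM is a vineyard isolate. RM and BY diploids were made by crossing within the strain, and every group was harvested as log phase cells. The labels give neither mating types, marker alleles, medium nor whether replicates came from separate cultures. The p-values therefore speak to scatter among arrays alone, which could be technical. That scatter was estimated over 24 arrays, these 12 with 3 of RM haploids, 3 of BY haploids and 6 of mRNA mixtures.

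A hybrid carries a copy of each parental genome. Where both copies are expressed independently, the transcript level lies midway between the parents on the linear scale, which is called additive. A level like that of 1 parent is called dominant for that parent, and a level beyond both parents is called transgressive. Purely cis-acting differences, which lie in a gene's own copy, leave each copy expressed as in its parent and so give the additive level, whereas trans-acting ones, which lie in diffusible regulators, can move a hybrid elsewhere.

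Each of 6504 probe sets that detect a single gene was classed by limma tests with Benjamini-Hochberg adjustment over all 9274 probe sets tested and a threshold of 0.05. A probe set above or below both parents was called in the same direction against each of them. BY-like and RM-like probe sets were called between the parents, against the other parent and against the arithmetic midparent, and missed the threshold against the parent they are named for. That miss does not show that hybrid and parent were equal. Additive probe sets were called against both parents, lay between them, and missed the threshold against the midparent. All levels are log2 values and all differences are log2 differences, given with SE where tested.

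Array medians lay at 7.38 to 7.49 in the hybrids, at 7.48 to 7.50 in RM and at 7.52 to 7.56 in BY. The lowest correlation between 2 arrays of a group was 0.956 in hybrids, 0.973 in RM and 0.993 in BY. The median SD of a probe set within the group was 0.176 in hybrids, 0.155 in RM and 0.091 in BY. Median differences over all probe sets were -0.085 for hybrid minus RM and -0.094 for hybrid minus BY. In the same order they were -0.052 and -0.011 under median centring and -0.048 and -0.019 under quantile normalization. Little of the shift against BY thus remained after either scaling. Of all 9274 probe sets, 12.5% were called between hybrid and RM, 23.1% between hybrid and BY (9.79% higher and 13.3% lower in hybrids) and 18.1% between hybrid and midparent (6.51% higher and 11.5% lower). The median of 7 a-specific mating genes lay at 6.03 to 6.26 in hybrids, 6.46 to 6.67 in RM and 6.05 to 6.33 in BY, against 9.59 to 9.72 in RM haploids. The median of 5 alpha-specific genes lay at 7.02 to 7.16, 7.19 to 7.64 and 7.19 to 7.34 in the same diploid groups, against 11.72 to 12.12 in BY haploids. Both gene sets are repressed in diploids that carry both mating types, and both were low in all 12 arrays. The number of arrays limits the precision.

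Hybrids resembled RM more often than BY. Of single-gene probe sets, 299 were RM-like (4.6%) and 53 BY-like (0.815%), while 80 were additive (1.23%). Hybrids lay above both parents at 98 probe sets (1.51%) and below both at 125 (1.92%). A further 8 (0.123%) lay between the parents, closer to RM than the midparent and called against RM, BY and midparent, and none (0%) did so on the BY side. The parents differed at 1143 probe sets (17.6%), of which 678 could not be placed (10.4% of the single-gene probe sets). Another 5163 (79.4%) had parents that were not called different and a hybrid not called beyond both. Counts of hybrid against each parent reached 683 against RM (10.5%), 1736 against BY (26.7%) and 1326 against the midparent (20.4%), and these comparisons share the hybrid arrays.

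**Figure D1:**
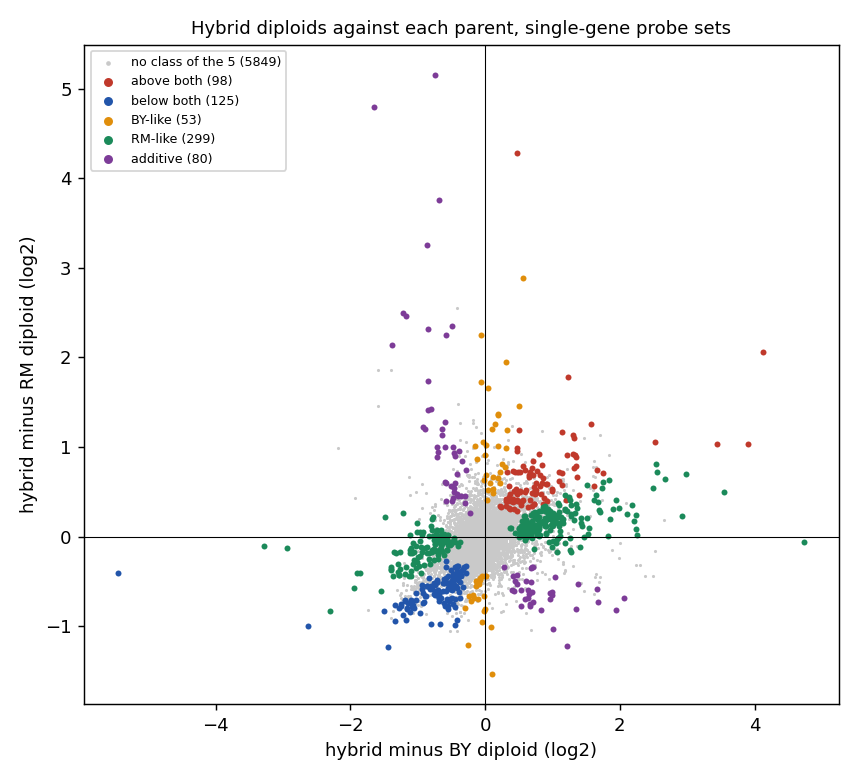
Each point is a single-gene probe set, with the log2 difference of hybrid minus BY diploid on the horizontal axis and of hybrid minus RM diploid on the vertical axis, coloured by class, with grey for those in none of the 5 classes. RM-like probe sets (299) lie along the horizontal axis, the fewer BY-like ones (53) along the vertical axis, and the 80 additive ones where the 2 differences have opposite signs.

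Counts of each class moved with single arrays. RM-like probe sets outnumbered BY-like ones in all 27 settings that gave both counts, by 3.28 to 7.04 times, and by 5.64 times as reported. Leaving out RM replicate 2 gave 39 probe sets above and 40 below both parents, and leaving out hybrid replicate 4 gave 268 below. Other single arrays that moved the count below both by over 1.5 times were hybrid replicates 1 (70), 2 (77), 3 (237) and 6 (71), BY replicates 2 (80) and 3 (68), and RM replicate 3 (57). The count above both became 63 without hybrid replicate 1 or RM replicate 1 and 57 without RM replicate 3. BY-like probe sets numbered 33, 28 and 33 without BY replicates 1, 2 and 3 and 32 without RM replicate 2, and RM-like ones 197 and 189 without BY replicates 2 and 3. Without hybrid replicates 1 and 6 the counts were 54 above, 28 below, 34 BY-like and 182 RM-like.

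A position on the linear scale, with 0 at the BY mean and 1 at the RM mean, was computed for the 1143 probe sets whose parents differed. Its median was 0.713 for the mean of the hybrids, and 69.2% of the probe sets lay above 0.5, on the RM side of the midparent. Where RM was the higher parent the median was 0.801, and where RM was the lower it was 0.629. Positions beyond RM made up 26.8% (306) and positions beyond BY 5.51% (63). The median position in single hybrid arrays was 0.821, 0.821, 0.555, 0.529, 0.735 and 0.836 for replicates 1 to 6. All 6 medians lay on the RM side of the midparent, with replicates 3 and 4 nearest to it.

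**Figure D2:**
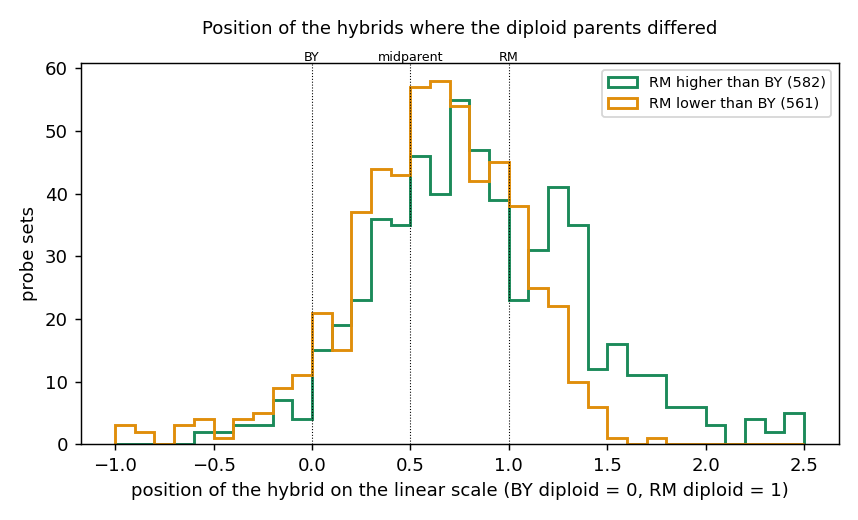
Number of single-gene probe sets by position of the hybrid mean on the linear scale, where 0 is the BY diploid and 1 the RM diploid, for the 582 probe sets with RM higher (green) and the 561 with RM lower (orange), with the 3 below -1 and the 4 above 2.5 drawn in the end bins. Both outlines peak between the midparent and RM, and the green one runs further beyond RM.

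The classes differed in the size of the parental difference. Among the 879 probe sets whose parents differed by under 2-fold, 25.6% were RM-like, 4.44% BY-like and 1.71% additive. Among 204 with a 2- to 4-fold difference the shares were 31.4%, 5.88% and 21.1%. Over 4-fold, 60 probe sets gave 16.7%, 3.33% and 36.7%. A hybrid between the parents is called against both only where they lie far apart, so small differences could hardly be called additive. On the linear scale a hybrid equal to the higher parent can lie at most 1 log2 unit above the midparent, which makes likeness to the higher parent harder to call than likeness to the lower. RM was the higher parent at 189 of the 299 RM-like probe sets, and BY at 31 of the 53 BY-like ones.

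Genes of the mitochondrial electron transport chain, which passes electrons from substrates to oxygen and drives ATP synthesis, were placed at or beyond RM. Of 28 measured chain and cytochrome genes, 21 were RM-like and 4 lay above both parents, against 5.06% and 1.63% of all 5656 genes (1 probe set per gene), where 2.12% lay below both, 0.919% were BY-like and 1.18% additive. Against the midparent 26 rose and none fell, where 9.05% of all genes rose and 12.8% fell, and the median difference was 0.616 beside -0.055 over all genes. The median level of the list ran from 11.18 to 11.50 over the hybrid arrays, from 10.95 to 11.05 over RM and from 10.04 to 10.07 over BY. Every hybrid array lay above every RM array, and RM above BY. Without hybrid replicates 1 and 6, 20 were RM-like and 4 above both.

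CYC1, the main cytochrome c, was the RM-like chain gene with the largest parental difference. Its level was 12.33, 12.46 and 12.62 (lowest, median and highest) in the 6 hybrids, 12.23, 12.20 and 12.29 in RM diploids and 9.63, 9.54 and 9.48 in BY diploids. All hybrids lay above all RM arrays by a small margin and far above BY. The difference was 2.92 ± 0.10 against BY (limma adjusted p = 8.9e-16) and 0.23 ± 0.10 against RM (adjusted p = 0.142). NDE1, the NADH dehydrogenase on the outer face of the inner membrane, had 11.93, 11.96 and 12.06 in hybrids, 11.53, 11.47 and 11.52 in RM and 10.54, 10.62 and 10.57 in BY. Its 6 hybrid arrays overlapped neither parent and rose by 0.46 ± 0.09 over RM (limma adjusted p = 0.00116), the nearer parent. SDH3, a membrane anchor of succinate dehydrogenase, rose by 0.60 ± 0.13 over RM and 0.84 ± 0.13 over BY, with hybrids at 11.07, 11.24 and 11.50, RM at 10.76, 10.63 and 10.55 and BY at 10.44, 10.33 and 10.45. QCR8, a subunit of the cytochrome bc complex, rose by 0.41 ± 0.09 over RM and 1.20 ± 0.09 over BY, but its other probe set was not placed. CYB2, the lactate dehydrogenase that feeds cytochrome c, had 8.50, 9.07 and 9.80 in hybrids, 8.04, 7.98 and 8.11 in RM and 6.74, 6.54 and 6.47 in BY. It rose by 1.06 ± 0.26 over RM (limma adjusted p = 0.0072) and 2.52 ± 0.26 over BY.

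ATP synthase, the rotary enzyme that uses the proton gradient, was likewise placed at or beyond RM. Of 17 measured genes, 11 were RM-like and 5 lay above both parents (ATP3, ATP5, ATP7, ATP14 and STF2), and all 17 rose against the midparent, with a median of 0.494. The list's median level was 11.23 to 11.45 in hybrids, 11.05 to 11.06 in RM and 10.38 to 10.47 in BY. ATP7, a stator subunit, had 11.21, 11.27 and 11.68 in hybrids, 10.73, 10.48 and 10.48 in RM and 9.99, 9.89 and 10.12 in BY. All hybrids lay above both parents, and the rise was 0.76 ± 0.12 over RM (limma adjusted p = 0.000105) and 1.32 ± 0.12 over BY (adjusted p = 6.65e-08). ATP5, the stalk subunit that confers oligomycin sensitivity, rose by 0.84 ± 0.14 over RM and 0.70 ± 0.14 over BY, although RM and BY differed by only -0.14 (RM minus BY, adjusted p = 0.662). The count above both was 2 without RM replicate 2 and 3 without RM replicate 1, and without hybrid replicates 1 and 6 it was 4 with 9 RM-like.

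Of 20 measured genes of the TCA and glyoxylate cycles, which oxidise acetyl groups, 3 lay above both parents (CIT1, IDH2 and LSC1) and 6 were RM-like, with 11 above the midparent. Their median against the midparent was 0.37. IDH2, a subunit of the NAD-dependent isocitrate dehydrogenase, had 11.16, 11.56 and 12.03 in hybrids, 11.02, 10.67 and 10.63 in RM and 10.85, 10.80 and 10.87 in BY. Hybrids overlapped neither parent, with the lowest values in replicates 3 and 4, and rose by 0.77 ± 0.15 over RM (limma adjusted p = 0.000995) and 0.70 ± 0.15 over BY. The counts without hybrid replicates 1 and 6 were 2 above and 3 RM-like, quantile normalization gave 1 above, and the RM-like count was 2 without BY replicate 1 or RM replicate 2 and 3 without BY replicate 2, BY replicate 3 or RM replicate 1. Mitochondrial ribosomal proteins, which translate the mitochondrial genome, gave 21 RM-like and 8 above both of 67, with 40 above the midparent and a median of 0.33. MRPL16, of the large subunit, rose by 0.40 ± 0.11 over RM (limma adjusted p = 0.014) and 0.48 ± 0.11 over BY, and RSM10, of the small subunit, by 0.48 ± 0.16 and 0.84 ± 0.16. MRPL16 lost its class without RM replicate 1 or 2, and RSM10 without any of 8 of the 12 arrays. The count of these genes above both parents was 1 under quantile normalization, where the median against the midparent was 0.275, 0 without RM replicate 2 and 2 without RM replicate 1. Without any one of the other arrays but hybrid replicate 6 it was 4 or 5.

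**Figure D3:**
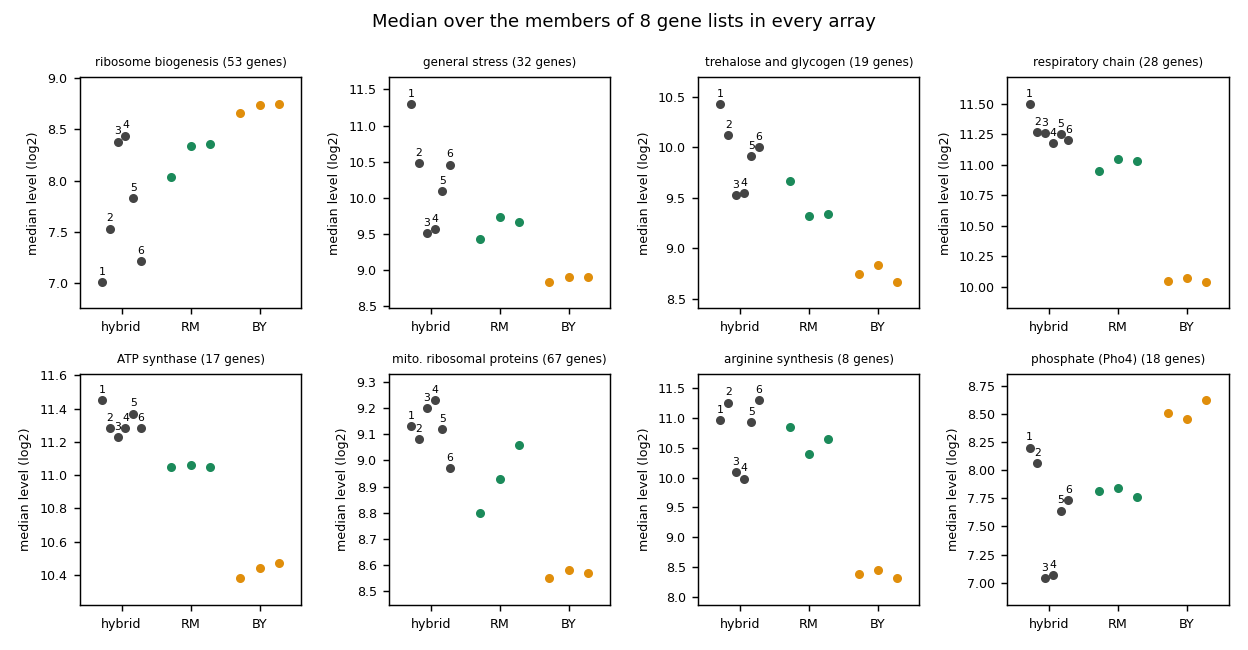
Median log2 level over the members of 8 gene lists in each array of hybrid, RM and BY diploids, with the hybrid replicate number beside its point. For the respiratory chain and ATP synthase all hybrids lie close together above RM, whereas for ribosome biogenesis and general stress replicate 1 lies furthest from the parents and replicates 3 and 4 lie within or just above the RM range.

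Genes of the mitochondrial genome did not follow a single class. Of 19 measured, 2 lay above both parents (COB and COX1), 4 were BY-like and 1 RM-like, and the median against the midparent was 0.429. COB, which encodes cytochrome b, had 7.97, 8.71 and 8.96 in hybrids, 6.20, 6.75 and 6.67 in RM and 4.33, 4.42 and 4.66 in BY. No hybrid overlapped a parent, and the rise was 2.06 ± 0.27 over RM (limma adjusted p = 7.5e-06) and 4.13 ± 0.27 over BY. The distance from RM was the largest beyond the nearer parent among single-gene probe sets, and the other probe set of COB was RM-like. BY levels of COB lay near 4.38, the lowest hybrid level over all genes, so the rise over BY was measured from near the floor. COX1, the catalytic subunit of cytochrome oxidase and named here after its values were seen, was higher by 4.28 than in RM and by 0.47 than in BY (limma adjusted p = 0.0417), while its other 2 probe sets were not placed. AI5_ALPHA, an intron-encoded reading frame within COX1, was BY-like with 6.96, 7.64 and 7.74 in hybrids, 5.59, 5.52 and 5.48 in RM and 7.02, 7.17 and 7.31 in BY. Its 6 hybrid arrays all lay above RM and overlapped BY. How the mitochondrial genome was transmitted in the cross is not given in the labels and was not tested.

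Outside the mitochondrion, few genes of sugar uptake and glycolysis were placed, and HXT6, HXT7 and HXK1 lay above both parents. Of 14 measured hexose transporters, HXT6 and HXT7 were above both and HXT1, a low-affinity transporter, was RM-like, and the median of the list was -0.086 against the midparent and -0.185 against RM. Of 23 measured genes of glycolysis and fermentation, 1 lay above both (HXK1) and 1 below both (ADH1), beside 1.63% and 2.12% of all genes, and the median against the midparent was -0.001. ADH1, the main fermentative alcohol dehydrogenase, lost its class in 6 of 16 settings and 7 of 12 leave-outs. HXT7, a high-affinity glucose transporter, had 12.43, 12.51 and 12.85 in hybrids, 11.65, 11.70 and 11.65 in RM and 11.17, 11.31 and 11.14 in BY. Each hybrid array exceeded each parental array, and the rise was 0.89 ± 0.19 over RM (limma adjusted p = 0.00249) and 1.35 ± 0.19 over BY. HXT6, its neighbour with a near-identical sequence, rose by 0.93 ± 0.18 and 1.30 ± 0.18, but the probe sets of both genes can detect either transcript. HXK1, a hexokinase, had 12.09, 12.23 and 12.85 in hybrids, 11.05, 11.20 and 11.28 in RM and 10.96, 11.10 and 10.98 in BY. Here too the groups did not overlap, and RM and BY differed by only 0.16 (adjusted p = 0.758), while the hybrids rose by 1.14 ± 0.22 over RM (limma adjusted p = 0.00095) and 1.30 ± 0.22 over BY.

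FDH1 and ACH1, enzymes that act on formate and acetate, were in the same class. FDH1, formate dehydrogenase, had 9.55, 9.89 and 10.64 in hybrids, 8.96, 8.90 and 8.85 in RM and 6.08, 6.07 and 5.97 in BY. The groups were fully apart, with a rise of 1.04 ± 0.20 over RM (limma adjusted p = 0.000939) and 3.90 ± 0.20 over BY. The probe set of FDH1 can share sequence with a relative, and its other probe sets were RM-like and above both. ACH1, a mitochondrial CoA transferase for acetate, had 9.04, 9.32 and 10.19 in hybrids, 8.33, 8.19 and 8.20 in RM and 8.22, 8.21 and 8.36 in BY. The parents were not called different (RM minus BY -0.02, adjusted p = 0.969), and all 6 hybrids were higher, by 1.17 ± 0.19 over RM (limma adjusted p = 0.000127) and 1.14 ± 0.19 over BY. The class of HXT6, HXT7, HXK1, FDH1, ACH1, CYB2, ATP7, ATP5, SDH3 and IDH2 was kept in all 16 alternative settings and with each of 12 arrays left out.

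**Figure D4:**
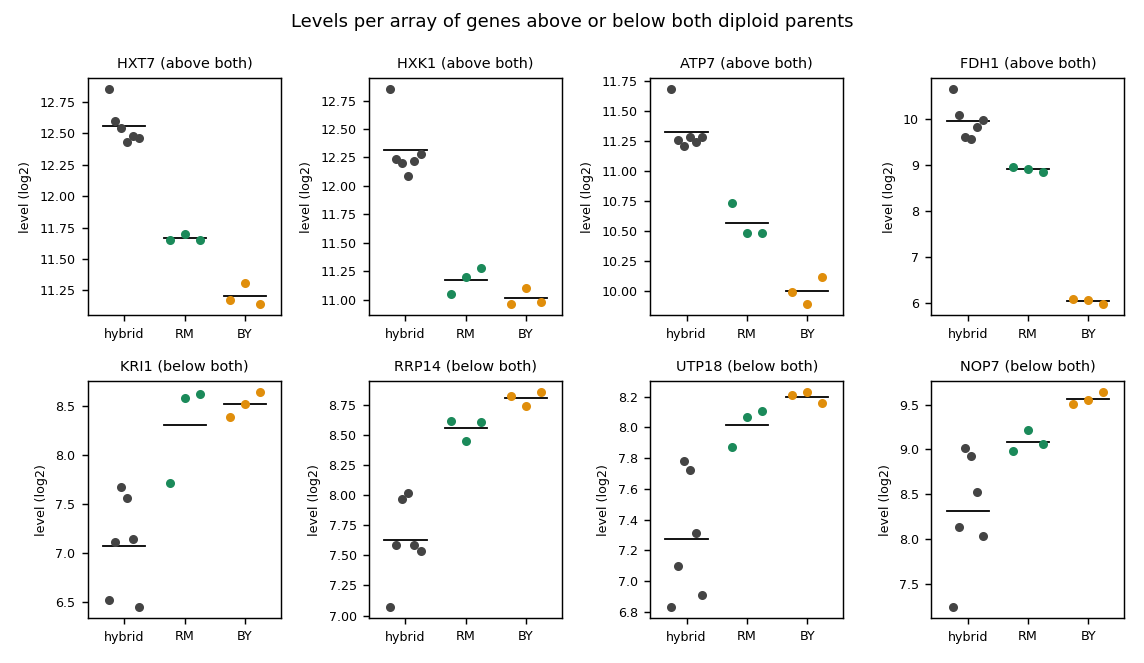
Log2 level in each array of hybrid, RM and BY diploids, in order of replicate from left to right within a group, with a line at the group mean, for 8 genes. HXT7, HXK1, ATP7 and FDH1 lie above both parents in all 6 hybrid arrays, while KRI1, RRP14, UTP18 and NOP7 lie below both on average, with hybrid replicates 3 and 4 nearest to the parents.

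Stress and reserve carbohydrate genes were higher in hybrids but differed widely between hybrid arrays. Of 32 measured general stress genes, which share induction under stress and slow growth, 22 rose against the midparent and 1 fell, with 5 above both parents, 8 RM-like and 2 BY-like, and their median difference was 0.742. The list's median level was 11.30, 10.48, 9.51, 9.57, 10.09 and 10.46 in hybrid replicates 1 to 6, 9.43 to 9.73 in RM and 8.84 to 8.91 in BY. Replicates 3 and 4 lay within the RM range and the other 4 above it. Without hybrid replicates 1 and 6 the counts were 9 above the midparent, 1 above both and 6 RM-like, with a median of 0.493, and the count above both was 1 without RM replicate 2 or 3, 2 without hybrid replicate 2 or RM replicate 1, 3 without BY replicate 2 and 8 without hybrid replicate 4. No gene was BY-like without hybrid replicate 2 or without any one BY or RM array, and 1 was without hybrid replicate 1, 5 or 6, and 5 were RM-like without RM replicate 2. SOL4, a phosphogluconolactonase, had 11.32, 10.28, 9.01, 8.78, 9.72 and 10.44 in hybrid replicates 1 to 6, 8.63, 8.76 and 8.61 in RM and 8.30, 8.45 and 8.30 in BY. Hybrid replicate 4 lay just above the highest RM array, and the difference was 1.26 ± 0.37 over RM (limma adjusted p = 0.0254) and 1.57 ± 0.37 over BY, a class lost without replicates 1 and 6, without replicate 2 or without any one RM array. HSP26, a small heat shock protein, rose by 1.78 ± 0.39 over RM and 1.23 ± 0.39 over BY, with 10.17 in replicate 1 and at most 8.20 in the other hybrids. Its class was lost without any one of the 3 BY arrays.

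Of 19 measured genes of trehalose and glycogen metabolism, 13 rose against the midparent, 3 lay above both (GSY1, GLG1 and UGP1) and 2 were RM-like, with a median of 0.753. GSY1, a glycogen synthase, had 9.55, 10.02 and 10.40 in hybrids, 9.43, 9.11 and 9.08 in RM and 8.22, 8.35 and 8.29 in BY. It was the gene just inside the threshold, with a difference over RM of 0.74 ± 0.25 (limma adjusted p = 0.0495), and 10 of 12 leave-outs ended its class. MEF1, a mitochondrial elongation factor, was just outside with 0.34 over RM (adjusted p = 0.0505). Without hybrid replicates 1 and 6 no gene of this list was above both, 3 were RM-like and 5 rose against the midparent, and the count above both was 1 under quantile normalization. It was 6 without hybrid replicate 3 or 4, 1 without RM replicate 3 and 0 without any other single array, and the RM-like count was 4 without hybrid replicate 1 and 1 without BY replicate 3. Of 24 measured heat shock proteins and chaperones, 4 lay above both (HSP42, HSP60, HSP104 and SSC1) and 8 rose against the midparent. HSP104, the disaggregase, had 10.05, 10.27 and 11.04 in hybrids, 9.58, 9.19 and 9.39 in RM and 9.81, 9.88 and 9.89 in BY, where BY was the nearer parent at 0.48 ± 0.16 (limma adjusted p = 0.0319), a call lost without any one BY array. Chaperones above both numbered 1 under quantile normalization or without BY replicate 2, and 2 without BY replicate 1, BY replicate 3 or hybrid replicates 1 and 6.

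The genes below both parents included many nucleolar factors, which process ribosomal RNA and assemble ribosomal subunits. Of 53 measured ribosome biogenesis genes, 47 fell against the midparent and none rose, 11 lay below both parents and 8 were RM-like, against 2.12% below both and 5.06% RM-like over all genes. Their median difference from the midparent was -0.783. The list's median level was 7.01, 7.53, 8.38, 8.44, 7.83 and 7.21 in hybrid replicates 1 to 6, 8.03 to 8.36 in RM and 8.66 to 8.75 in BY. Hybrid replicates 3 and 4 lay above the highest RM array and below BY, and the other 4 lay below every parental array. Leaving out hybrid replicate 3 or 4 gave 26 and 28 below both, and leaving out RM replicate 2 or 3 gave 4. The RM-like count became 2 without BY replicate 2 or 3 or RM replicate 1, 4 without BY replicate 1, and 5 without hybrid replicate 2 or RM replicate 2. Without hybrid replicates 1 and 6 the list had 3 below both, 3 RM-like and 25 below the midparent, with a median of -0.539.

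KRI1, needed for the small ribosomal subunit, had 6.45, 7.12 and 7.67 in hybrids, 7.71, 8.58 and 8.62 in RM and 8.39, 8.52 and 8.64 in BY. All hybrids lay below all parental arrays, narrowly so for RM replicate 1, and the level fell by 1.23 ± 0.25 from RM (limma adjusted p = 0.00139) and by 1.44 ± 0.25 from BY. KRI1 was the one single-gene probe set over 2-fold below both. RRP14, which acts in both subunits' maturation, had 7.07, 7.59 and 8.02 in hybrids, 8.62, 8.45 and 8.61 in RM and 8.83, 8.74 and 8.86 in BY, with differences of -0.93 ± 0.18 from RM (limma adjusted p = 0.000881) and -1.18 ± 0.18 from BY. UTP18, of the small subunit processome, had 6.83, 7.20 and 7.78 in hybrids, 7.87, 8.07 and 8.11 in RM and 8.21, 8.23 and 8.16 in BY, and differed by -0.74 ± 0.18 and -0.93 ± 0.18. Groups did not overlap at either gene. RRP15, another nucleolar factor, differed by -0.65 ± 0.15 from RM and -0.74 ± 0.15 from BY. The classes of KRI1, RRP14, UTP18 and RRP15 were kept in all alternative settings and leave-outs, while those of NOP16, EBP2, UTP14, NOP2 and NOP7 were lost without hybrid replicates 1 and 6, among other settings. At the threshold of this class, HMT1, a protein arginine methyltransferase, was just inside with -0.48 from RM (limma adjusted p = 0.0489), and YNL162W-A just outside with -0.39 (adjusted p = 0.0501).

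RPB5 and RPB8, which encode subunits shared by the nuclear RNA polymerases, were among the genes furthest below both parents and were named for that, so they say nothing of the other subunits. RPB5 differed by -0.68 ± 0.17 from RM and from BY alike (limma adjusted p = 0.00828 and 0.00474), and RPB8 by -0.61 ± 0.16 from RM and -0.63 ± 0.16 from BY. RPB5 lost its class without RM replicate 3, and RPB8 without any one RM array or BY replicate 3. Cytoplasmic ribosomal proteins held 81 measured genes, of which none was above or below both and 5 fell against the midparent, with a median of -0.154. Their median level was 12.39 to 13.10 in hybrids, 12.82 to 12.91 in RM and 12.88 to 12.99 in BY, so the groups overlapped. None of the 81 fell under median centring, or without hybrid replicate 1, hybrid replicate 6, BY replicate 2, BY replicate 3, RM replicate 2 or RM replicate 3, while 12 fell without hybrid replicate 4. The number that fell was 1 without hybrid replicate 2 or BY replicate 1, 2 without hybrid replicate 5 and 3 without RM replicate 1.

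How far the transgressive genes lay beyond the nearer parent differed by hybrid array. The median distance of the 98 probe sets above both was 0.757, 0.58, 0.358, 0.382, 0.47 and 0.445 in hybrid replicates 1 to 6. For the 125 below both it was -0.813, -0.563, -0.237, -0.263, -0.467 and -0.723. Replicates 3 and 4 lay nearest the parents in both classes. The groups did not overlap at 80 of the 98 and 71 of the 125, read beside 2.94% and 3.87% of single-gene probe sets with all hybrids above or below all parental arrays. Of the 98 above both, 9 were over 2-fold beyond the nearer parent, and the median distance was 0.505 for this class and 0.52 for the class below. Parents themselves were not called different at 78 of those above and 120 of those below.

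Among RM-like genes were phosphate starvation genes, targets of the regulator Pho4, that were low in hybrids and RM and high in BY. The median over the whole list was 8.20, 8.06, 7.04, 7.07, 7.64 and 7.73 in hybrid replicates 1 to 6. It was 7.76 to 7.84 in RM and 8.45 to 8.62 in BY. Hybrid replicates 1 and 2 thus lay between the parents, and the others below RM. Of 18 measured, 7 were RM-like (PHM6, PHO5, PHO81, SPL2, VTC1, VTC3 and VTC4), 2 lay below both parents (PHO84 and CTF19) and VTC2 was additive. CTF19, a kinetochore gene, differed from RM by -0.32 ± 0.11 (limma adjusted p = 0.047) with overlapping arrays, and kept its class in 6 of 15 settings and 2 of 12 leave-outs. None of the 18 lay below both under quantile normalization, under median centring, without hybrid replicates 1 and 6, or without hybrid replicate 6, RM replicate 1 or RM replicate 2 alone, and 1 did without any other array but RM replicate 3. PHO5, a secreted acid phosphatase, had 6.92, 7.04 and 7.25 in hybrids, 7.29, 7.11 and 7.19 in RM and 9.96, 9.90 and 10.18 in BY. Hybrids overlapped RM and lay far below BY, with -0.12 ± 0.10 from RM (limma adjusted p = 0.432) and -2.94 ± 0.10 from BY (adjusted p = 4.42e-16). SPL2, a regulator of low-affinity phosphate uptake, had 4.95, 5.35 and 5.42 in hybrids, 5.04, 5.45 and 5.55 in RM and 8.58, 8.45 and 8.57 in BY. At SPL2 the hybrids lay within the RM range but for the lowest array. PHO84, the high-affinity phosphate transporter, had 6.18, 6.26 and 6.35 in hybrids, 6.84, 6.67 and 6.49 in RM and 11.68, 11.63 and 11.79 in BY. It lay -5.44 ± 0.13 from BY, and its small difference of -0.41 ± 0.13 from RM (limma adjusted p = 0.0359) was lost in 7 of 16 settings, quantile normalization and median centring among them, and in 4 of 12 leave-outs. PHO3, an acid phosphatase next to PHO5, lay between the parents instead, with 8.75, 9.12 and 9.64 in hybrids, 7.10, 7.19 and 7.57 in RM and at least 10.58 in BY, at a position of 0.734. PHO3 and PHO5 have closely similar sequences, so their signals are uncertain. In haploids, RM minus BY was 0 at PHO5 (limma adjusted p = 0.992), 0.06 at SPL2 (adjusted p = 0.899) and 0.42 at PHO84 (adjusted p = 0.0476). The diploid differences were -2.82, -3.19 and -5.03, so these genes were far lower in RM than in BY only in diploids. PHO3 differed in both, by -3.18 in haploids and -3.45 in diploids.

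Arginine synthesis ran the other way, high in hybrids and RM. Of 8 measured genes, ARG1, ARG3, ARG4, ARG7 and ARG8 were RM-like, ORT1 was additive and 2 were not placed although their parents differed. All 8 rose over BY (13.8% of all genes did), by a median of 2.10, and the median difference from RM was 0.06. ARG3, ornithine carbamoyltransferase, had 10.58, 11.25 and 11.62 in hybrids, 11.38, 11.05 and 11.20 in RM and 6.55, 6.45 and 6.24 in BY. Hybrids spanned the RM range and stood 4.74 ± 0.26 above BY (limma adjusted p = 1.2e-11), at a position of 0.959, and its class was lost without hybrid replicates 1 and 6 or without RM replicate 2 or 3. ARG1, argininosuccinate synthetase, had 11.98, 13.04 and 13.24 in hybrids, 12.59, 12.12 and 12.17 in RM and 9.26, 9.16 and 9.29 in BY. ORT1, the mitochondrial ornithine transporter, had 7.99, 8.68 and 9.14 in hybrids, 9.52, 9.26 and 9.23 in RM and 6.89, 7.04 and 6.88 in BY, at a position of 0.513. All hybrids fell between the parents at ORT1, although its class was lost without RM replicate 1 or 2. In the list's median, hybrid replicates 3 and 4 had 10.09 and 9.98, below RM at 10.40 to 10.84, and the other 4 had 10.93 to 11.29. The number of RM-like arginine genes was 2 without hybrid replicates 1 and 6, and also 2 without RM replicate 2 and 3 without RM replicate 3.

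Other amino acid pathways gave few placements. Of 19 measured genes for histidine and aromatic amino acids, 1 was RM-like (HIS1), and 9 had parents that differed but a hybrid that was not placed. Lysine synthesis had 5 such genes of 9, among them LYS2, with 8.74, 9.46 and 10.20 in hybrids, 10.43, 9.99 and 10.32 in RM and 8.87, 8.71 and 8.82 in BY. Leucine and branched-chain synthesis had 3 of 13 and no class. In the median of the histidine and aromatic list, hybrid replicates 3 and 4 had 9.57 and 9.49 and the other hybrids 10.11 to 10.61. RM had 10.24 to 10.63 and BY 9.32 to 9.59. For lysine the same replicates had 8.84 and 8.74 and the other hybrids 9.33 to 9.71. RM had 8.95 to 9.26 there and BY 8.71 to 8.87. Without hybrid replicate 4, 4 histidine and aromatic genes and 3 lysine genes were RM-like. Sulfur amino acid synthesis had 3 BY-like members of 26 (MET3, MET5 and MET10), with MET2 below both, MET16 and MET28 additive and SAM1 RM-like. The BY-like count was 1 without BY replicate 2, RM replicate 2 or RM replicate 3, and the count below both was 3 without hybrid replicate 3 or 4 and 0 without BY replicate 1 or 3. MET2, homoserine acetyltransferase, had 6.08, 6.32 and 6.39 in hybrids, 7.25, 7.30 and 7.12 in RM and 6.73, 6.50 and 6.88 in BY, and lay -0.93 ± 0.12 from RM and -0.41 ± 0.12 from BY (limma adjusted p = 0.0147), a class lost without BY replicate 1 or 3. MET10, a sulfite reductase subunit, lay at 7.84, 8.14 and 8.39 in hybrids, 8.83, 9.02 and 8.90 in RM and 7.99, 8.18 and 8.16 in BY, and lost its class without RM replicate 2 or without hybrid replicates 1 and 6.

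BY-like genes with the largest differences were those high in BY. ITR1, a myo-inositol transporter, had 12.77, 12.80 and 12.85 in hybrids, 10.87, 11.33 and 11.22 in RM and 12.77, 12.80 and 12.71 in BY. Its hybrids lay close together on the BY level and rose by 1.66 ± 0.11 over RM (limma adjusted p = 1.07e-10), with 0.04 ± 0.11 against BY (adjusted p = 0.823). RPI1, a regulator linked to Ras signalling and cell wall genes, had 8.06, 8.36 and 8.42 in hybrids, 5.98, 6.05 and 6.12 in RM and 8.19, 8.41 and 8.47 in BY. Hybrids overlapped BY and lay 2.25 ± 0.15 above RM (limma adjusted p = 1.54e-10). TDH1, a glyceraldehyde-3-phosphate dehydrogenase, was BY-like with 11.85, 12.60 and 13.63 in hybrids, 10.01, 9.44 and 9.58 in RM and 12.04, 12.03 and 11.92 in BY, and lost its class without hybrid replicates 1 and 6. The classes of ITR1 and RPI1 were kept in all 16 settings and 12 leave-outs.

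Additive probe sets had a median parental difference of 1.405, and RM was the lower parent at 44 of the 80. COS6, of a family of membrane protein genes near telomeres, had 9.19, 9.36 and 9.86 in hybrids, 6.32, 6.05 and 6.04 in RM and 10.27, 10.33 and 10.19 in BY. All hybrids lay between the parents, 3.26 ± 0.15 above RM (limma adjusted p = 1.35e-13) and -0.87 ± 0.15 from BY, at a position of 0.479, and the difference from the midparent was 0.05 ± 0.15. QDR2, a multidrug transporter, had 8.93, 9.02 and 9.10 in hybrids, 6.42, 6.62 and 6.52 in RM and 10.20, 10.27 and 10.22 in BY, at a position of 0.616. Its difference from the midparent, -0.32 ± 0.11, missed the threshold narrowly (limma adjusted p = 0.0549), and 8 of 16 settings placed it otherwise. MRH1, a plasma membrane protein, had 11.90, 12.02 and 12.15 in hybrids, 10.87, 10.89 and 10.89 in RM and 12.61, 12.71 and 12.66 in BY, and lay at 0.505. The geometric midparent, which lies lower than the arithmetic one, ended the additive class of COS6, QDR2 and MRH1. ENA5, a sodium pump gene with near-identical neighbours, was 1 of the 8 closer to RM, at a position of 0.692.

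**Figure D5:**
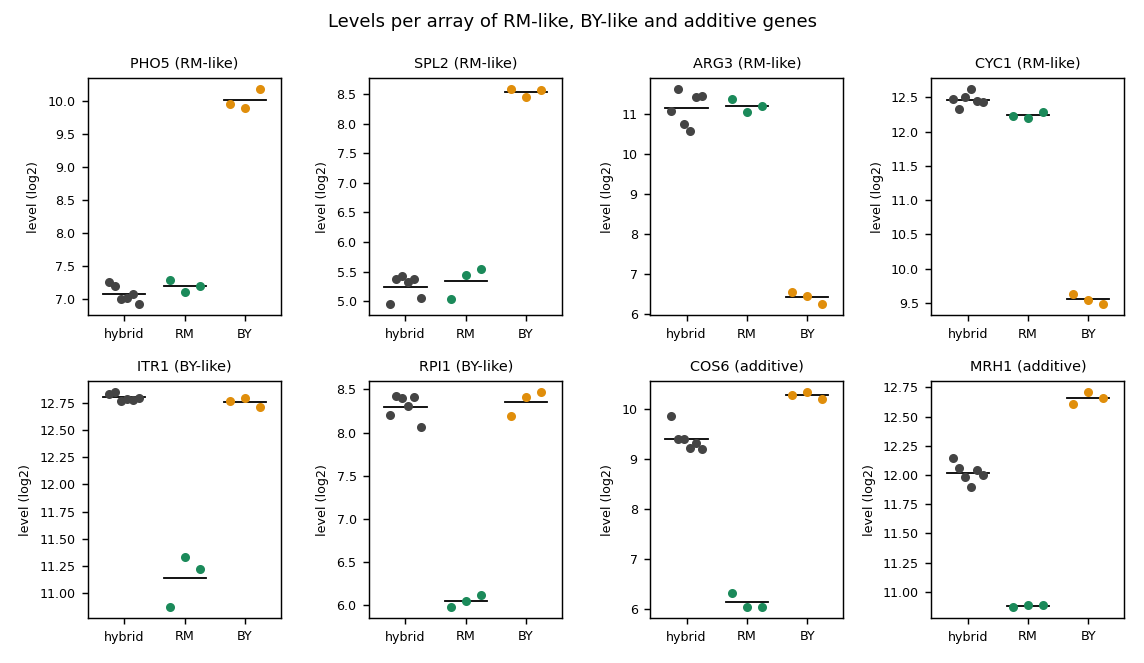
Log2 level in each array of hybrid, RM and BY diploids, in order of replicate from left to right within a group, with a line at the group mean, for 4 RM-like genes (PHO5, SPL2, ARG3 and CYC1), 2 BY-like genes (ITR1 and RPI1) and 2 additive genes (COS6 and MRH1). Hybrids share the range of one parent or lie near it in the first 6 panels, and lie between both parents in the last 2, at a position of 0.479 for COS6 and 0.505 for MRH1.

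Zinc-responsive genes, targets of the activator Zap1, were split. Of 12 measured, ADH4 lay above both parents, ZRC1, IZH1 and IZH2 below both, and INO1 and FET4 were RM-like. IZH1, a membrane protein of zinc homeostasis, had 8.60, 8.98 and 9.11 in hybrids, 9.73, 9.96 and 9.99 in RM and 9.24, 9.32 and 9.50 in BY. No hybrid reached a parental array, and the level fell by 0.98 ± 0.12 from RM (limma adjusted p = 1.79e-06) and by 0.44 ± 0.12 from BY. IZH2, its relative, fell by 0.55 ± 0.10 and 0.43 ± 0.10, and ZRC1, which moves zinc into the vacuole, by 0.55 ± 0.12 and 0.45 ± 0.12. ADH4, a zinc-regulated alcohol dehydrogenase, rose by 0.56 ± 0.15 over RM and 0.82 ± 0.15 over BY, and another probe set of ADH4 was not placed. The class of ADH4 was lost without RM replicate 2 or 3, and that of IZH1 without BY replicate 3 or without hybrid replicates 1 and 6.

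Haploid strains, whose levels do not enter the class rules, were compared in the same fit. Their scatter is part of the spread estimate behind the classes, so haploid calls and classes are not independent. The median of a-specific genes was 9.59 to 9.72 in RM and 6.04 to 6.14 in BY haploids, and of alpha-specific genes 7.46 to 7.90 and 11.72 to 12.12. URA3 averaged 6.37 in RM and 9.47 in BY haploids, and LEU2 7.85 and 10.68. Effects of mating type and marker genes cannot be told apart from strain in the haploids. The RM minus BY haploid difference was called in the direction of the diploid one at 51.9% of the 1143 single-gene probe sets. By class this was 71 of 80 additive probe sets (88.8%), 196 of 299 RM-like (65.6%), 22 of 53 BY-like (41.5%) and 278 of 678 unplaced ones (41%). It was called in the opposite direction at 3 RM-like, 2 BY-like and no additive probe sets. Additive probe sets had larger parental differences than RM-like and BY-like ones, whose medians were 0.723 and 0.643, and large differences are easier to call again. In 6 equal mixtures of RM and BY mRNA, whose ploidy the labels do not give, the median position between the haploid strains of those called again was 0.386 for additive, 0.484 for RM-like and 0.327 for BY-like probe sets. The hybrids' own medians there, which the class rules fixed, were 0.485, 1.212 and -0.211. Without mixture replicate 5, whose removal changed many counts, the mixture medians were 0.378, 0.508 and 0.317 in the same order of classes.

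In the R64 reference annotation, 16.4% of additive genes (11 of 67) lay within 25 kb of the first or last annotated gene of their chromosome, beside 3.73% of all genes, 2.11% of RM-like, 6.25% of BY-like, 6.67% of genes above both and 2.5% of genes below both. Probe sets marked as sharing sequence made up 11.9% of additive genes and 14.2% of genes below both, beside 4.83% of all genes. Of 2770 probe sets that name no gene or several, 148 were additive (5.34%), and RM was the lower parent at 137 of them. The arrays were designed on the sequence of BY's relative S288C, and the part of RM sequence differences in these lower signals was not tested. Mating, sporulation and cell cycle lists held few placed genes. SPO77, a sporulation gene, was the one of 41 measured meiosis genes below both parents, where 2.12% of all genes were. It lay at -0.77 ± 0.15 from RM and -0.59 ± 0.15 from BY (limma adjusted p = 0.00691), a call lost without BY replicate 3. Another probe set of SPO77 was not placed.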

How the data were processed

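Transcript levels came from 1-colour Affymetrix yeast arrays. The deposited table holds log2 levels per probe set, as judged from the range of the values, and the sources used here name no software for the authors' summary and scaling. Values were used as deposited. Of 9335 probe sets, 60 controls and 1 at 0 on every array were left out. Genes were named from the platform annotation matched to the R64 reference annotation, 1 probe set per gene (highest mean) for gene counts.

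A linear model took in 24 arrays in 6 groups (hybrid, RM and BY diploids, RM and BY haploids, mRNA mixtures) with limma 3.58.1 in R 4.3.3, two-sided. The midparent was the log2 of the mean linear parental level, with a delta-method SE. The fits were tested on simulated data with independent noise and the same spread in every group. The real groups differed in spread, so this checks the procedure and not the calls in these data. Members, the 41 gene lists and the tests were chosen with earlier results of these data known.

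Genes were named by rule: in each transgressive class the 12 furthest beyond the nearer parent without overlap, in the other classes the 4 largest parental differences in each direction, 2 for partly shifted ones, up to 4 transgressive members of each list, and a set of mating and marker genes. The text names part of them and, in some lists only, further members given a class.

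Alternatives were scalings, filters, a floor, other fits, midparents, thresholds and class rules, and leaving out each array. List counts without hybrid replicates 1 and 6, without mixture replicate 5 or single arrays, and under other scalings, and mixture positions without mixture replicate 5, were added after seeing the data. Figures were drawn with Python and matplotlib.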

Additional observations from a re-analysis of the deposited data

Results flagged for a closer look

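In 12 of 92 named genes a hybrid array lay far from the other 5, by Dixon's test at the 95% level, which chance passes in about 1 in 20 groups. Hybrid replicate 1 was the distant array in 9 of them. It was the highest at HSP26 (10.17, next 8.20), HXK1 (12.85, next 12.28), HXT6 (12.78, next 12.52), ATP7 (11.68, next 11.28), COS6 (9.86, next 9.40), HSP104 (11.04, next 10.33), SSC1 (11.85, next 11.66) and LEU2 (10.34, next 10.06), and the lowest at SNR44 (7.25, next 8.11). Replicate 6 was the highest at ACH1 (10.19, next 9.47) and the lowest at NOP16 (5.67, next 6.71), and replicate 4 the highest at EDC1 (7.55, next 7.20). The cause was not tested.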

How the results depend on the processing

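Counts of probe sets and the order of the classes both depended on the fit. As reported, more probe sets lay below both parents than above (125 and 98), but median centring gave 101 below and 135 above, and without hybrid replicates 1 and 6 the additive class (68) outnumbered both. In 16 settings and 12 leave-outs, no named gene with a class reversed its sign and was then placed above or below both parents. Other changes of sign were not counted. Of 92 named genes, 29 kept their outcome throughout. Among these, SAG1, GPA1, URA3, HO and LEU2 had been given no class and stayed without one. With the 12 diploid arrays alone, calls against RM numbered 1914, beside 1158 as reported over all probe sets, and BY-like ones 101. Without mixture replicate 5 they were 2114 against RM, 2657 against the midparent (1675 as reported), 165 above, 308 below, 101 BY-like, 451 RM-like and 134 additive. Without hybrid replicates 1 and 6, calls against the midparent were 685, with 54 above, 28 below, 34 BY-like and 182 RM-like. At an adjusted p of 0.01, calls were 1250 against BY, 583 against RM and 739 against the midparent, with 24 above, 20 below, 20 BY-like, 122 RM-like and 37 additive. With 1 probe set per gene 617 were called against RM. Classes by position alone (0.25 and 0.75) gave 157 BY-like, 515 RM-like and 446 additive. Adjusting the larger of both p-values once gave 36 above and 28 below, and a minimum of 1.5-fold 37 and 46.

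With a replicate block, 172 lay above both (98 as reported). Same-numbered arrays of different groups correlated at -0.135 to 0.288 over 9 pairs, and in 6 of 9 the same number gave the best match, a hint from the data, not the design. The labels give no such link and the correlation was near or below 0 in 5 pairs, so the numbers were not taken to pair the samples. Leaving out 1 array gave 1388 to 2296 calls against BY, 694 to 1335 against RM, 1174 to 1931 against the midparent, 39 to 123 above, 40 to 268 below, 28 to 57 BY-like, 189 to 350 RM-like and 57 to 81 additive.

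Scaling moved directions. Under median centring, 1163 probe sets rose and 891 fell against BY (908 and 1236 as reported), and 778 rose and 766 fell against the midparent (604 and 1071). RM was the higher parent in 74% of RM-like and 55.4% of additive probe sets (63.2% and 45% as reported). Under quantile normalization it was in 60.3% of BY-like and 59% of additive ones (41.5% and 45%). The causes of these changes were not tested. No sequence table was at hand, so the planned count of promoter motifs was not run.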
